A study of Homo sapiens with 15 samples.

Results

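The amino acid transporter families were taken as all genes whose symbol is SLC1A, SLC3A, SLC6A, SLC7A, SLC36A, SLC38A or SLC43A followed by a number, on transcript clusters with 1 gene symbol, with the brightest cluster standing for a gene. By this rule, which uses names and no measured response, 58 of the 18417 gene symbols on the array were members: 7 in SLC1, 2 in SLC3, 18 in SLC6, 13 in SLC7, 4 in SLC36, 12 in SLC38 and 2 in SLC43. Their expression was measured in MH7A, an immortalised human synovial cell line grown in culture, on 15 arrays from 3 numbered experiments, each of which supplied 1 array per condition. Cells were left resting or received IL-1β (15 pg/ml, 13 h), and the stimulated cells were given nothing else, glucosamine (GlcN), alloxan, or both agents. The GlcN dose was 5 mM, added 2.5 h ahead of IL-1β. Alloxan, an inhibitor of the O-GlcNAc transferase OGT, was first applied for 30 min at 5 mM in the combination and was kept at 2 mM afterwards. The labels spell these alloxan doses out only for the combination. Alloxan also reacts with other proteins, GlcN was not given without IL-1β, and all cells are of 1 line, which limits the groups as models of synovial tissue.

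Cells bring amino acids across the plasma and lysosomal membranes with carriers of these families. The SLC7 light chains pair with an SLC3 heavy chain and exchange large neutral amino acids or cystine, the SLC1 and SLC38 carriers use sodium for glutamate or for small neutral amino acids, and the SLC6 carriers use sodium and chloride for glycine, taurine, creatine and neurotransmitters. SLC36 carriers move amino acids with protons, often out of lysosomes, and SLC43 carriers let large neutral amino acids through down their gradient. Several of these genes are known targets of the amino acid response, in which the transcription factor ATF4 binds C/EBP-ATF response elements when cells lack amino acids or have stress of the endoplasmic reticulum.

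The values were log2 signals computed by the authors with RMA. The 5 arrays of an experiment had nearly equal medians, 6.18 to 6.21 in experiment 1, 7.14 to 7.19 in experiment 2 and 7.49 to 7.54 in experiment 3, so levels are set side by side only within an experiment. Differences between conditions were therefore tested in limma with the experiment as a block, over 16872 genes of which 54 were members, and a gene is called at an adjusted p under 0.05 (Benjamini-Hochberg over all genes tested). SLC6A14, SLC7A13, SLC36A3 and SLC38A11 missed the filter on dim genes and were not tested. Their signals lay between 2.75 and 5.41 on all arrays. As a yardstick of array background, 27 members exceeded the 95th percentile of 360 olfactory receptor clusters on all 15 arrays, 23 exceeded it on none and 8 on some, although probes differ in brightness and this is not a detection call. The markers fixed for synovial fibroblasts exceeded that level on all arrays for 8 of 12 genes, including VIM, COL1A1 and THY1, whereas PDPN and PRG4 exceeded it on none. PTPRC, which marks leukocytes, PECAM1, which marks endothelium, and EPCAM, which marks epithelium, were above it on none. Other genes of these lists did exceed it: the monocyte gene CD14 on 12 arrays, the endothelial gene CDH5 on 6, and the lysosomal gene CD68 and the epithelial genes CDH1 and KRT14 on all 15.

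The largest rises with GlcN were in carriers of glycine, cystine and neutral amino acids and in the heavy chain SLC3A2. Against IL-1β alone, 11 of the 54 members tested were called higher and 1 lower, where 5.29% of all genes tested were called higher and 6.62% lower. SLC6A9, SLC7A11, SLC3A2, SLC1A4 and SLC7A5 rose by 0.92 to 2.43 on the log2 scale, and SLC38A9, SLC1A5, SLC38A1, SLC43A1, SLC6A16 and SLC7A1 by 0.23 to 0.43. SLC38A4 fell by 0.39. The 11 genes called higher were among the 27 members above the olfactory level on all arrays, and none of the other 27 members tested was called higher. The median difference was 0.03 for the members tested and 0.01 for all genes, so most members lay near 0. These calls rest on comparing arrays within an experiment: without the block, in which the level of the experiments counts as error and the standard error was 0.596 for every gene, 0 members and 4 genes in all were called in limma for GlcN. With the block but only the 6 arrays of GlcN and IL-1β alone, 0 members were called, and at an unadjusted p under 0.05 the fit on all arrays gave 14 members higher and 3 lower, beside 1992 and 2191 of all genes, or 24.8%.

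**Figure D1:**
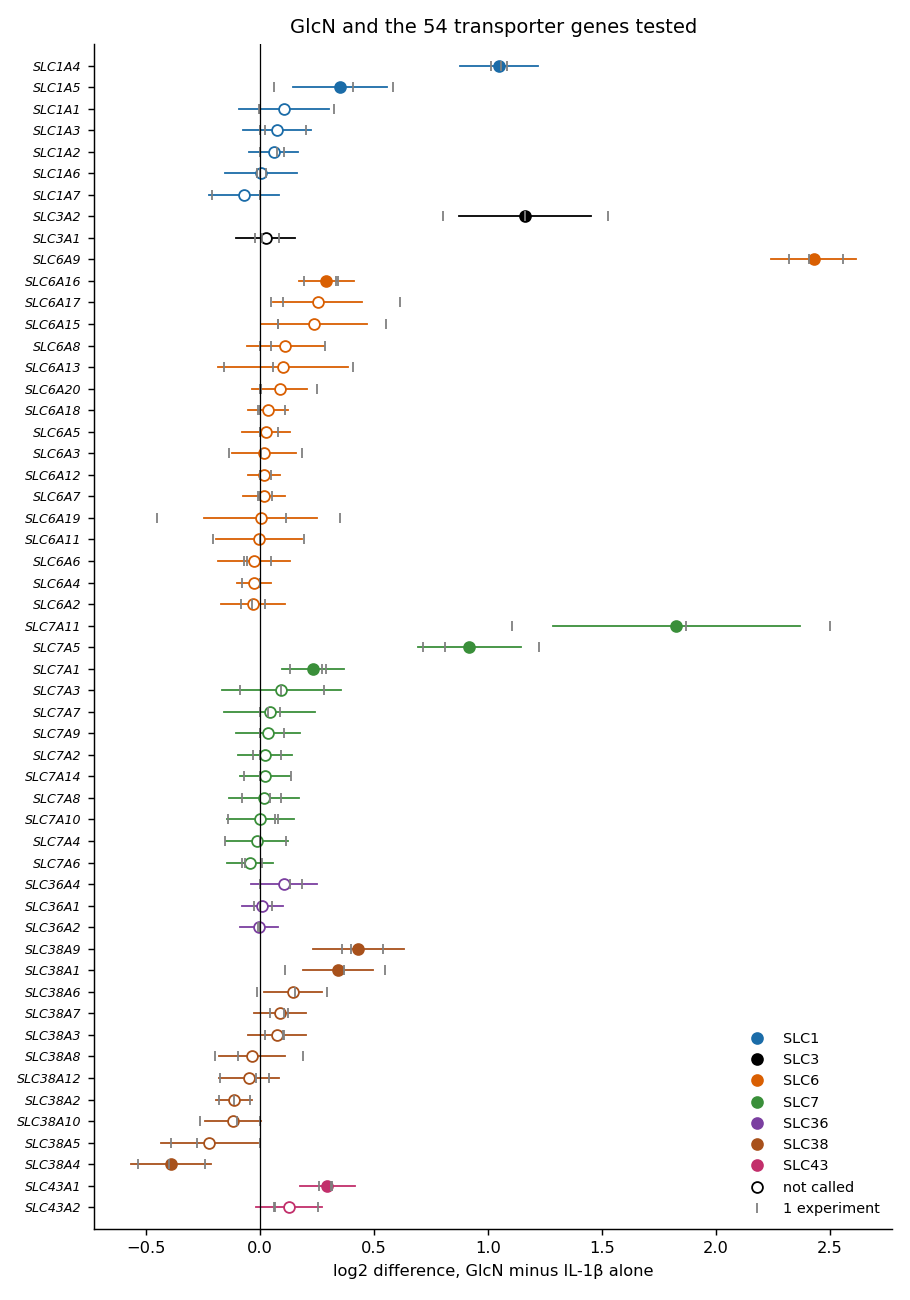
Log2 difference between GlcN with IL-1β and IL-1β alone (x axis) for the 54 members tested (y axis, ordered by family). Circles are the blocked limma estimates, lines their 95% intervals and grey ticks the differences in the 3 experiments. Filled circles are called genes: 11 lie to the right of 0 and SLC38A4 to the left, and SLC6A9 lies furthest out at 2.43.

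SLC6A9, the sodium and chloride coupled glycine transporter, had the largest difference of the members. Its log2 signals in resting, IL-1β, GlcN, GlcN with alloxan and alloxan cells were 6.73, 6.89, 9.44, 8.74 and 6.48 in experiment 1. In the same order they were 8.01, 8.21, 10.62, 9.65 and 7.88 in experiment 2, and 8.29, 8.57, 10.9, 10.03 and 8.27 in experiment 3. The GlcN array was the highest of each experiment, and the lowest GlcN signal lay above the highest signal of IL-1β alone even across experiments. The log2 difference with GlcN was 2.43 ± 0.118 (SD, n = 3 experiments), a 5.39-fold difference, with an adjusted p of 1.53e-07. Of the 10 genes listed as carriers of glycine, proline and other amino acids in SLC6, 9 were tested. Of these 9, 2 were called higher, beside 5.29% of all genes tested. The gene called besides SLC6A9 was SLC6A16, a member whose substrate is not settled. Its GlcN signals were 6.56, 7.7 and 7.96 against 6.36, 7.36 and 7.63 with IL-1β alone. GlcN was again highest in each experiment, by 0.29 ± 0.082 on the log2 scale (adjusted p = 0.006).

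SLC3A2, the heavy chain that carries the light chains to the membrane, rose together with 2 of its light chains, SLC7A11 and SLC7A5. SLC3A2 signals with IL-1β alone were 10.31, 12.0 and 11.91 in experiments 1, 2 and 3, and 11.84, 12.8 and 13.07 with GlcN. The difference was positive in each experiment and was 1.16 ± 0.364 (SD, n = 3), a 2.24-fold difference with an adjusted p of 0.000223, although the GlcN signal of experiment 1 lay below the IL-1β signals of experiments 2 and 3. SLC7A11, the light chain of the cystine and glutamate exchanger, was at 8.91, 11.02 and 10.61 with IL-1β alone and at 11.41, 12.13 and 12.48 with GlcN, with no overlap across experiments. Its size varied between experiments: the differences were 2.50, 1.11 and 1.87, with a mean of 1.83 ± 0.698 and an adjusted p of 0.000769.

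SLC7A5, the light chain of the main carrier of leucine and other large neutral amino acids, was at 10.05, 11.59 and 11.7 with IL-1β alone and at 11.28, 12.31 and 12.51 with GlcN. The GlcN array was the highest of the 5 in each experiment, by 0.92 ± 0.269 over IL-1β alone (adjusted p = 0.000213). No other gene of this group was called. SLC7A6, which also pairs with SLC3A2, was at 9.99, 11.17 and 11.32 with IL-1β alone and at 9.91, 11.1 and 11.33 with GlcN, and the 95% interval of its difference ran from -0.15 to 0.05. For SLC7A8, a second carrier of large neutral amino acids whose signals never exceeded the olfactory level, the interval ran from -0.14 to 0.17. In all, 3 of the 9 tested genes listed as heavy and light chains were called higher and 0 lower, with a group median of 0.04. Of all genes tested, 5.29% were called higher and 6.62% lower.

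**Figure D2:**
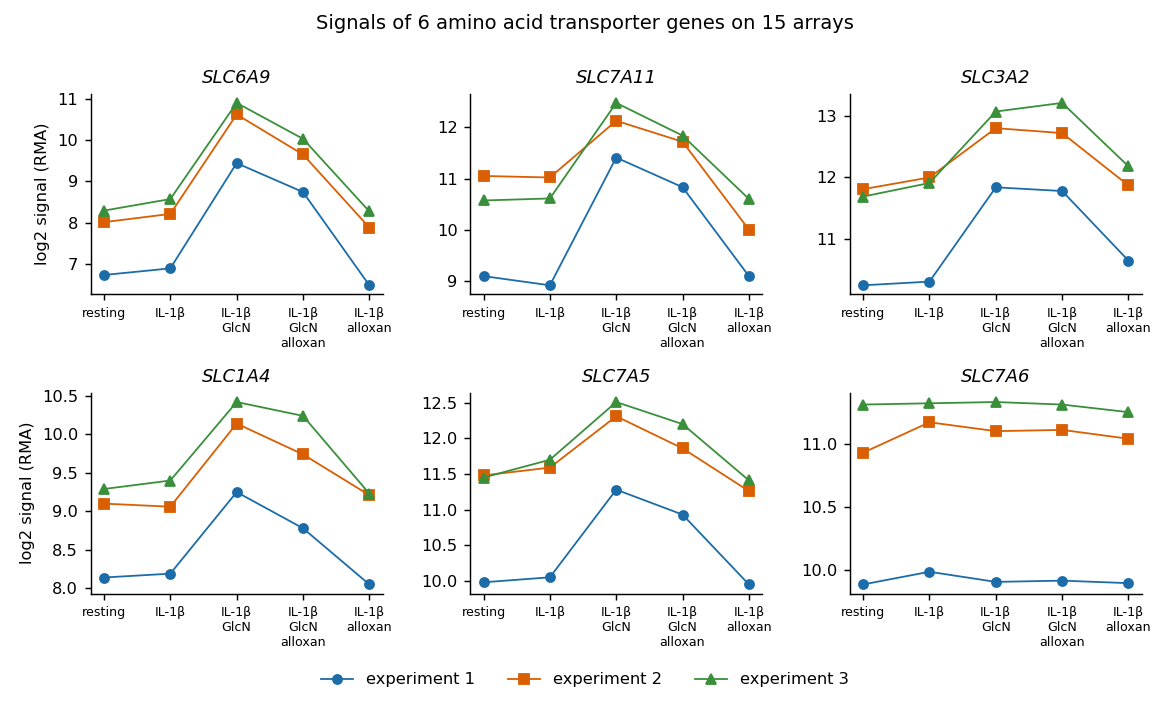
Log2 RMA signal (y axis) of SLC6A9, SLC7A11, SLC3A2, SLC1A4, SLC7A5 and SLC7A6 in the 5 conditions (x axis); each line joins the 5 arrays of 1 experiment and does not stand for time. The first 5 genes peak with GlcN or with GlcN and alloxan in each experiment, whereas SLC7A6 stays within 0.25 log2 units of its IL-1β array, and experiment 1 lies lowest throughout.

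Both neutral amino acid exchangers of SLC1 were called higher, beside 5.29% of all genes tested. SLC1A4, which exchanges serine, alanine and cysteine, was at 8.19, 9.06 and 9.4 with IL-1β alone and at 9.25, 10.14 and 10.42 with GlcN. Its differences were the most even of the large ones, 1.05 ± 0.035 (SD, n = 3), or 2.07-fold, with an adjusted p of 1.31e-05. SLC1A5, the glutamine exchanger, lies on 2 clusters, of which the brighter stands for it and the other was not tested by itself. It was at 11.15, 12.41 and 12.41 with IL-1β alone and at 11.73, 12.47 and 12.82 with GlcN. That is a mean difference of 0.35 ± 0.264, which in experiment 2 was 0.06 (adjusted p = 0.033). The SLC1A5 call did not hold without the GlcN or the IL-1β array of experiment 1 or of experiment 3, where the adjusted p reached 0.129. None of the 5 acidic amino acid transporters of SLC1 was called, with differences from -0.07 to 0.11, and of these SLC1A7 alone exceeded the olfactory level, on 1 array.

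The SLC38 carriers moved in opposite directions. SLC38A1, a sodium coupled carrier of glutamine and other small neutral amino acids, was at 11.7, 12.66 and 12.67 with IL-1β alone and at 12.25, 12.77 and 13.04 with GlcN, the highest array of each experiment. It rose by 0.34 ± 0.22 (adjusted p = 0.00856). SLC38A9, the lysosomal carrier that senses arginine, went from 9.49, 10.5 and 10.45 to 10.03, 10.85 and 10.85, a difference of 0.43 ± 0.095 (adjusted p = 0.00972). SLC38A4, a carrier of neutral and cationic amino acids, was at 6.42, 7.19 and 7.24 with IL-1β alone and at 6.02, 6.65 and 7.0 with GlcN. Its drop was seen in each experiment (0.39 ± 0.148, adjusted p = 0.0086), but its signal exceeded the olfactory level on 9 of 15 arrays only. SLC38A2, the carrier best known to be induced when amino acids are lacking, was not called: it was at 12.47, 12.98 and 13.1 with IL-1β alone and at 12.35, 12.8 and 13.06 with GlcN, a difference of -0.115 with an adjusted p of 0.0621. SLC38A1, SLC38A2 and SLC38A4 are consecutive protein-coding genes on chromosome 12.

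In the other families, SLC7A1, the main importer of arginine and lysine, was at 10.25, 11.58 and 11.86 with IL-1β alone and at 10.52, 11.71 and 12.15 with GlcN. It was 1 of 5 tested cationic carriers called, beside 5.29% of all genes called higher. Its difference was 0.23 ± 0.087, with an adjusted p of 0.0337. The call was lost without any IL-1β array or the GlcN array of experiment 1 or 3. It was also lost without the alloxan array of experiment 3, with adjusted p up to 0.113 in these fits. SLC43A1, a facilitative carrier of leucine and phenylalanine, was at 8.29, 9.45 and 9.69 with IL-1β alone and at 8.61, 9.7 and 10.0 with GlcN. Its difference of 0.295 ± 0.031 was close to equal in the 3 experiments (adjusted p = 0.00471). The lysosomal proton coupled SLC36A1 differed by 0.01, with an interval from -0.08 to 0.10, and none of the 3 tested SLC36 genes was called. Neither were the 5 tested SLC6 carriers of GABA, taurine, betaine and creatine (differences from -0.03 to 0.11) nor the 3 monoamine carriers (from -0.03 to 0.02).

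The calls were also recomputed with each experiment left out, which leaves 2 arrays per condition. SLC6A9, SLC3A2, SLC1A4 and SLC7A5 were called in each of the 3 fits, with adjusted p at most 0.031. SLC7A11 was not called without experiment 3 (adjusted p = 0.0545), and each of the other 7 GlcN calls was lost without 2 of the 3 experiments, with adjusted p between 0.081 and 0.285 at the highest. The number of members called higher ranged from 4 to 10 in these fits, and from 9 to 11 when 1 array was left out.

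Promoter windows of RefSeq (build GRCh38.p14, 250 bases before to 50 bases after a start) were available for 45 of the 58 members, including 10 of the 11 genes called higher with GlcN. They were searched on both strands for TGATGNAA, the core of the C/EBP-ATF response element, and for TGACNNNGC, the core of the antioxidant response element. In the first window listed per gene, TGATGNAA was present in 3 of the 10 called genes, in 1 of the 32 tested members not called higher and in 2.18% of all tested genes with a window. Counting every listed start, it was present in 5 of the 10 called genes (SLC1A4, SLC1A5, SLC38A1, SLC3A2 and SLC7A1), in 1 of the 32 (SLC1A3) and in 3.19% of tested genes. The called genes had more listed starts, 1.9 on average against 1.41, which raises the chance of a match. TGACNNNGC was present in 3 of 10 called genes in the first window, in 2 of 32 others and in 14.8% of tested genes. The 5 windows of called genes that hold TGATGNAA are printed, with the motif or its reverse complement in capitals. Those of SLC1A4 and SLC1A5 belong to other listed starts, since the first windows of these genes lack the motif. Whether the motif has a part in the response was not tested.
SLC1A4 (chr2:64989149-64989448, + strand): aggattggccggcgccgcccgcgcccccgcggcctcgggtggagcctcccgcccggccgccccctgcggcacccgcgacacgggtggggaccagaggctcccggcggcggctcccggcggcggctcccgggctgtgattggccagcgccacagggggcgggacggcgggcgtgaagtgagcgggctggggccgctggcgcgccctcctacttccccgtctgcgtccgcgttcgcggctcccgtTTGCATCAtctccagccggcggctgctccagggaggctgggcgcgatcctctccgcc
SLC1A5 (chr19:46784765-46785064, - strand): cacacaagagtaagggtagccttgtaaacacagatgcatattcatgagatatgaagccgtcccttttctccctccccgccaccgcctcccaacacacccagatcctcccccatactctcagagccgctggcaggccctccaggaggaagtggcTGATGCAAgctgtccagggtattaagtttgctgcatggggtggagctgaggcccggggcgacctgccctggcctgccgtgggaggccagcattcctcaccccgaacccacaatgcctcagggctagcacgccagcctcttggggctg
SLC38A1 (chr12:46266467-46266766, - strand): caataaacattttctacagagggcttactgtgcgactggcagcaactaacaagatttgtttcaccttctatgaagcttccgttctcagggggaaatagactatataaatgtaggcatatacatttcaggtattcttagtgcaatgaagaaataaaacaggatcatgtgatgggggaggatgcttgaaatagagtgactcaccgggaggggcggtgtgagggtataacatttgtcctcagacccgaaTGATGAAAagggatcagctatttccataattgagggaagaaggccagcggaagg
SLC3A2 (chr11:62881449-62881748, + strand): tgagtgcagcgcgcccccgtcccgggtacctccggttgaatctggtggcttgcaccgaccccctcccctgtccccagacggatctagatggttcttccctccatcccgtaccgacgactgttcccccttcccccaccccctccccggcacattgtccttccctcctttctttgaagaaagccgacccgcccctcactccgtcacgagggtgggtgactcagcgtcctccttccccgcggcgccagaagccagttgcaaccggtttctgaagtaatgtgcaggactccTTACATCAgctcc
SLC7A1 (chr13:29595639-29595938, - strand): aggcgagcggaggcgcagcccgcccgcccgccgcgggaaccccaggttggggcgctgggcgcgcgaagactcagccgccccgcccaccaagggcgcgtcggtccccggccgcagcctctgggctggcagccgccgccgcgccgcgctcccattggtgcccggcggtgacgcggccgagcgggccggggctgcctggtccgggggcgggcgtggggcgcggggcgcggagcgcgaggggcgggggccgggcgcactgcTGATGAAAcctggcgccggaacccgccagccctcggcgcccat

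Positions are given from the start to which each printed window belongs. The motif began 7 bases before that start in SLC1A4, on the opposite strand, 97 bases before it in SLC1A5 and 4 bases before it in SLC38A1. In SLC3A2, on the opposite strand, it began at base 38 of the transcript and in SLC7A1 at base 8. The windows of SLC6A9, SLC7A5, SLC38A9, SLC43A1 and SLC6A16 held no such letters, which says nothing about sites elsewhere in these genes. A match is a description of sequence and no binding was measured here.

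No carrier of these families was called with IL-1β itself. Relative to resting cells, 0 of the 54 members were called, as were 0.0% of all 16872 genes, with a smallest adjusted p of 0.169 in limma. At an unadjusted p under 0.05, 6 members were higher and 0 lower, beside 491 and 486 of all genes. SLC6A6, the taurine transporter, had the largest difference. It was at 9.51, 10.81 and 10.86 in resting cells and at 9.76, 10.97 and 11.19 with IL-1β, higher in each experiment by 0.25 ± 0.085, with an adjusted p of 0.622. Without the block the count was also 0.

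Alloxan was added to ask how far the GlcN response needs OGT. With GlcN and alloxan together, 6 members were higher and 3 lower than with IL-1β alone, where 9.06% of all genes were called higher and 8.47% lower. SLC6A9, SLC7A11, SLC3A2, SLC1A4 and SLC7A5 were still called higher, by 1.58 ± 0.233, 1.28 ± 0.617, 1.17 ± 0.393, 0.70 ± 0.125 and 0.55 ± 0.309 (SD, n = 3), and the sixth was SLC43A1 (0.38 ± 0.048). SLC38A4 fell by 0.585 ± 0.271, SLC38A10 by 0.40 ± 0.146 and SLC38A6 by 0.29 ± 0.052. The SLC38A4 signals with the combination lay below the olfactory level in experiments 2 and 3. Adjusted p-values of these 9 members lay between 1.48e-06 and 0.00524. Without the block, 0 members were called in this comparison, and with the block over its 6 arrays SLC6A9 alone was called (adjusted p = 0.0495). The comparisons of GlcN, GlcN with alloxan and alloxan with IL-1β alone share the same 3 IL-1β arrays, so their values are given side by side.

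The direct comparison of the combination with GlcN alone called 0 members higher and 5 lower, beside 3.27% and 3.52% of all genes. Of the 54 members, 14 had a positive difference, and the median was -0.039, beside -0.007 for all genes. Exactly equal values on the arrays of these conditions were held by 13, 4 and 9 members in experiments 1, 2 and 3. SLC6A9 was lower in each experiment, with signals of 8.74, 9.65 and 10.03 against 9.44, 10.62 and 10.9 with GlcN alone (-0.845 ± 0.134, adjusted p = 0.000345). SLC38A6 fell from 7.55, 8.14 and 8.22 with GlcN to 6.98, 7.81 and 7.82 with the combination, by 0.43 ± 0.12 (adjusted p = 0.00164). SLC6A16 fell by 0.30 ± 0.064, to signals that lay within 0.03 of IL-1β alone in each experiment (adjusted p = 0.00919). Rounded, the combination and IL-1β alone had the same SLC6A16 signal in experiment 2 (7.36) and in experiment 3 (7.63). Values shared between arrays are described at the end. SLC1A4 fell by 0.35 ± 0.152 (adjusted p = 0.0229) and SLC38A10 by 0.28 ± 0.035 (adjusted p = 0.0142).

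SLC3A2 and its light chains were not called here. Its signals were 11.78, 12.72 and 13.21 with the combination and 11.84, 12.8 and 13.07 with GlcN alone, lower in 2 experiments and higher in 1, a difference of 0.002 with a 95% interval from -0.29 to 0.29. SLC7A11 was lower in each experiment, at 10.83, 11.72 and 11.84 against 11.41, 12.13 and 12.48, but its difference of -0.54 ± 0.116 did not pass (adjusted p = 0.224). SLC7A5 differed by -0.37 ± 0.072, likewise in each experiment, with an adjusted p of 0.0573. Whether SLC3A2 differs from its light chains in this respect was not tested. Of the 5 calls, SLC6A9 alone was kept when each experiment was left out, with an adjusted p of at most 0.0486. The SLC1A4 call was lost without any GlcN array or the combination array of experiment 1 or 2 (adjusted p up to 0.0915). The SLC38A10 call was lost without the GlcN array of experiment 2 or 3 or the combination array of experiment 1 or 2 (up to 0.0636), and 1 to 2 members were called with an experiment left out. Without the block, 0 members were called.

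**Figure D3:**
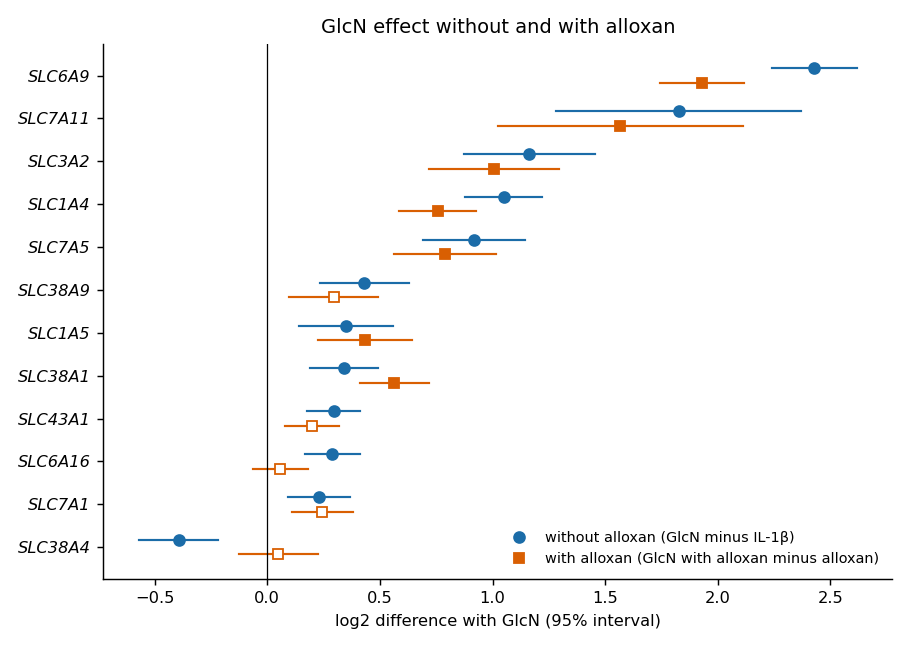
Log2 difference with GlcN (x axis) for the 12 members called in the GlcN comparison (y axis), without alloxan (circles, GlcN minus IL-1β alone) and with alloxan (squares, GlcN with alloxan minus alloxan alone). Lines are 95% intervals and filled symbols are called; 7 of the 12 are also called with alloxan, and the SLC38A4 difference lies at -0.39 without and 0.05 with alloxan.

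Alloxan alone lowered several carriers, most of them in SLC38. Against IL-1β alone 8 members were called lower and 1 higher, where 7.21% of all genes were lower and 6.13% higher. All 11 SLC38 genes tested had negative differences, from -0.63 to -0.04, and 5 were called, whereas the median over all genes was 0.015. SLC38A4 went from 6.42, 7.19 and 7.24 to 5.7, 6.43 and 6.82 (-0.63 ± 0.184, adjusted p = 0.000548). Its alloxan signals in experiments 2 and 3 lay below the olfactory levels of those arrays, 6.54 and 7.02. SLC38A1 was lowest with alloxan in each experiment, at 11.26, 12.1 and 12.25 (-0.47 ± 0.074, adjusted p = 0.00139). SLC38A6 was also lowest with alloxan, at 6.89, 7.73 and 7.73, and fell by 0.38 ± 0.046 (adjusted p = 0.00179). SLC38A12, named here although it is outside the naming rule and was chosen after its values were seen, was at 8.79, 9.58 and 10.05 and fell by 0.32 ± 0.152. Its call was kept in all 15 fits that left out 1 array. It was lost in each of the 3 fits that left out an experiment (adjusted p up to 0.0795). SLC38A10 fell by 0.19 ± 0.074 with an adjusted p of 0.0484, close to the threshold.

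**Figure D4:**
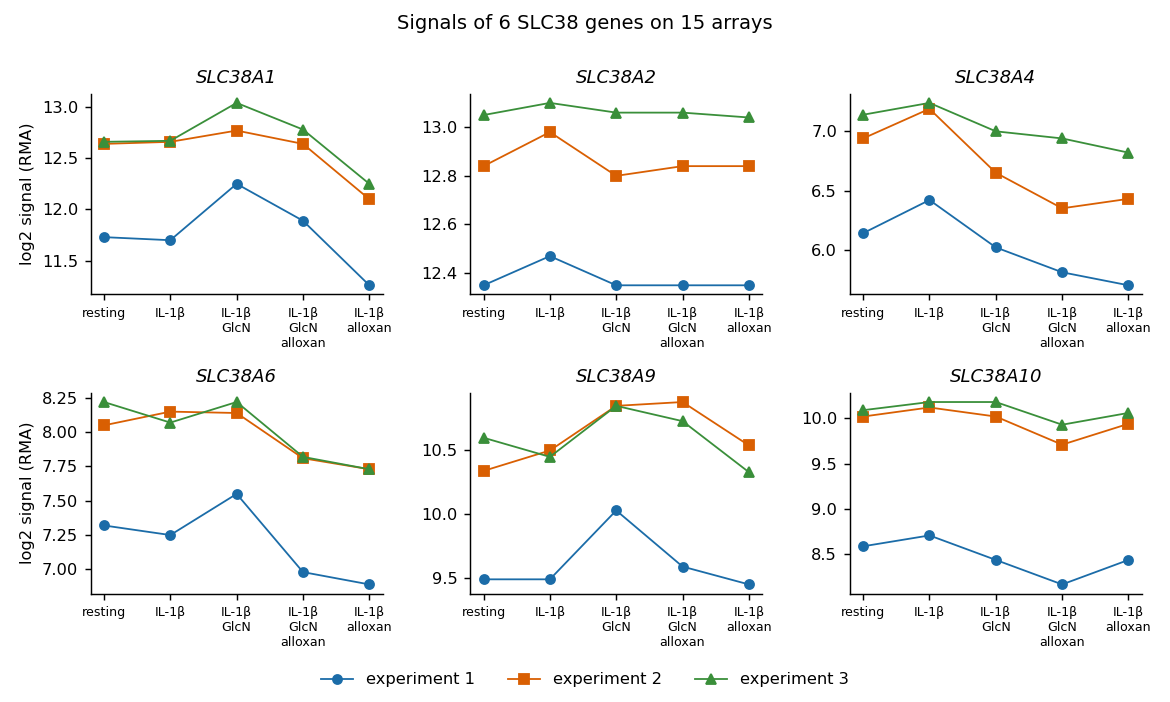
Log2 RMA signal (y axis) of 6 SLC38 genes in the 5 conditions (x axis); each line joins the 5 arrays of 1 experiment and does not stand for time. SLC38A1 and SLC38A6 are lowest with alloxan alone in each experiment, SLC38A9 stays close to IL-1β alone there, and SLC38A2 moves by less than 0.2.

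Outside SLC38, SLC6A6 fell with alloxan from 9.76, 10.97 and 11.19 to 9.44, 10.43 and 10.86 (0.40 ± 0.119, adjusted p = 0.00473). SLC1A5 fell by 0.35 ± 0.14 and SLC6A9 by 0.35 ± 0.057, with adjusted p-values of 0.0307 and 0.0206. SLC43A1 was the member called higher, at 8.57, 9.52 and 9.89 against 8.29, 9.45 and 9.69, a difference of 0.18 ± 0.101 (adjusted p = 0.0454). The SLC7A11 difference varied between experiments, with differences of 0.18, -1.02 and -0.02, and was not called.

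Of the 9 alloxan calls, 4 depended on single arrays. The SLC43A1 and SLC38A10 calls were each kept in 4 of the 15 fits that left out 1 array. SLC43A1 was lost (adjusted p up to 0.178) without any GlcN or alloxan array, the combination array of experiment 1 or 2, the IL-1β array of experiment 1 or 3 or the resting array of experiment 1. SLC38A10 was lost (up to 0.19) without any resting or alloxan array, the GlcN array of experiment 2 or 3, the combination array of experiment 2 or the IL-1β array of experiment 1 or 2. SLC1A5 was lost without any alloxan array or the IL-1β array of experiment 2 or 3 (up to 0.142), and SLC6A9 without the IL-1β array of experiment 2 or 3 or the alloxan array of experiment 1 (up to 0.0981). With an experiment left out, 1 to 4 members were called lower and 0 higher, and 0 without the block.

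In the presence of alloxan, GlcN raised 8 members over alloxan alone and lowered 0, where 1.86% of all genes were higher and 1.67% lower. SLC6A9 (1.93 ± 0.288, adjusted p = 1.13e-06), SLC7A11 (1.57 ± 0.278), SLC3A2 (1.01 ± 0.138), SLC7A5 (0.79 ± 0.189) and SLC1A4 (0.76 ± 0.246) led, as they did without alloxan. SLC38A1 was higher by 0.56 ± 0.059, SLC6A6 by 0.43 ± 0.019 and SLC1A5 by 0.43 ± 0.089. The last 3 had fallen with alloxan alone, and their signals with the combination lay between 0.17 below and 0.24 above those of IL-1β alone. Of the 8, SLC6A6 was not called with GlcN in the absence of alloxan. SLC1A5 was lost without any alloxan array or the combination array of experiment 1 or 3 (adjusted p up to 0.124). Between 2 and 9 members were called higher with an experiment left out, and 0 without the block.

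Whether alloxan changed the GlcN effect was tested as an interaction, the GlcN difference with alloxan minus that without. 0 of the 54 members passed, and 0.0119% of all genes were called higher and 0.0593% lower. At an unadjusted p under 0.05 the limma fit gave 5 members higher and 3 lower, beside 923 and 937 of all genes, or 11.0%. SLC6A6 had the smallest p: its GlcN difference was 0.45 larger with alloxan (95% interval 0.23 to 0.68, adjusted p = 0.156), positive in each experiment. The SLC6A9 difference was smaller with alloxan by 0.50 (interval of the change -0.76 to -0.23, adjusted p = 0.192), again in each experiment. For SLC38A4 the change was 0.44 (0.195 to 0.69, adjusted p = 0.227). The intervals of SLC3A2 (-0.57 to 0.25) and SLC7A11 (-1.03 to 0.51, n = 3 experiments) leave room for changes in either direction.

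Related genes outside the families were described from 4 lists. Of 21 regulators and targets of the amino acid response that are no transporters, 10 rose and 1 fell with GlcN, with a median of 0.32, where 5.29% of all genes were called higher and 6.62% lower. DDIT3, a stress-induced transcription factor, rose by 2.22 ± 0.46, ASNS, the asparagine synthetase, by 1.86 ± 0.35, and TRIB3, a pseudokinase induced by ATF4, by 1.62 ± 0.305. STC2, a secreted glycoprotein, fell by 0.49 ± 0.333. With alloxan alone 6 of the 21 were called higher than with IL-1β alone and 0 lower (all genes 6.13% and 7.21%), and with the combination 13 higher and 1 lower (9.06% and 8.47%). Between the combination and GlcN alone 0 were called higher and 2 lower (3.27% and 3.52%), of which TRIB3 fell by 0.60 ± 0.252. The list was chosen with earlier results of these data known, so its count is no independent support.

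Of 10 tested partners and regulators of transporter surface level, 4 fell with GlcN and none rose, and 1 fell with alloxan alone. Of all genes, 6.62% were called lower and 5.29% higher with GlcN, and 7.21% lower and 6.13% higher with alloxan alone. This list, too, was chosen with earlier results of these data known. SGK1, a kinase that keeps carriers at the membrane, fell by 1.58 ± 0.208 (adjusted p = 2.33e-06), and was 0.55 ± 0.07 higher with the combination than with GlcN alone (adjusted p = 0.00394). OXSR1, a kinase acting on ion cotransporters, fell by 0.45 ± 0.08, and NEDD4L, a ubiquitin ligase that removes carriers and channels from the membrane, by 0.35 ± 0.182.

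Among 31 tested genes of lysosomal amino acid sensing and mTORC1, 4 rose and 3 fell with GlcN, beside 5.29% and 6.62% of all genes, and 7 rose and 1 fell with alloxan alone, beside 6.13% and 7.21%. SESN2, a leucine sensor that restrains mTORC1, rose by 1.33 ± 0.19, DDIT4, a stress-induced mTORC1 inhibitor, by 1.11 ± 0.119 and the Rag GTPase RRAGC by 0.28 ± 0.099. DEPDC5 (-0.355 ± 0.261), SEH1L (-0.29 ± 0.116) and SAMTOR (-0.22 ± 0.102) fell. SESN2 and DDIT4 were the genes of the 4 lists called in the interaction, where the GlcN difference was smaller with alloxan by 0.89 ± 0.129 (adjusted p = 0.00515) and 1.15 ± 0.175 (adjusted p = 0.0309). Alloxan alone raised both over IL-1β alone, SESN2 by 0.80 ± 0.084 and DDIT4 by 0.88 ± 0.352, and neither was called between the combination and GlcN alone (-0.09 ± 0.075 and -0.27 ± 0.195). Of 22 amino acid carriers outside the 7 families, 1 rose and 3 fell with GlcN, beside 5.29% and 6.62% of all genes. With alloxan alone 1 rose and 5 fell, beside 6.13% and 7.21%, and SFXN2 and SFXN3 were among those called. With GlcN, CTNS, the lysosomal cystine exporter, rose by 0.51 ± 0.285. The mitochondrial carriers SFXN1 (-0.35 ± 0.041), SFXN3 (-0.29 ± 0.078) and SFXN2 (-0.21 ± 0.126) fell with GlcN.

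SLC43A3 lay on a cluster with several symbols and is not a member. SLC6A8, the creatine transporter, has pseudogene copies on the array, so its signal may hold RNA of several loci. Bulk signals cannot tell fewer cells from less RNA per cell, and no protein or transport was measured in these arrays.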

How the data were processed

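RNA of MH7A cells was hybridised to 15 Human Gene 1.0 ST arrays of Affymetrix. The log2 values deposited by the authors, for 33297 transcript clusters, are RMA summaries from Expression Console (version not given in the sources used here). Its background correction and normalization were kept, and arrays are precise only as far as their number allows. Groups and experiment numbers came from the labels. The methods name an unpaired t-test after a further normalization that was not repeated here.

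Gene symbols came from the platform annotation: 19460 clusters had 1 symbol, 1754 several and 12083 none listed, and 19429 matched a gene ID of the RefSeq table (GRCh38.p14). A gene was tested where its brightest cluster reached the 20th percentile on at least 3 of 15 arrays. Conditions were fitted with limma 3.58.1 in R 4.3.3 (5 group means, the experiment as a block, eBayes, 8 residual and 11.1 total degrees of freedom). P-values were two-sided, with Benjamini-Hochberg adjustment at 0.05. The fit was also run on simulated data with independent normal residuals, and the outcome is not reported here. Such data do not hold the exactly equal values seen between the deposited arrays, so that run cannot speak to them. Figures were drawn with matplotlib 3.10.9.

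Deviations from the group means ran together in arrays that share an experiment number, which the titles give. Correlations were 0.621 to 0.848 over 30 pairs, against -0.656 to -0.068 over 60 pairs of different number. Subtracting the group means by itself pushes the values between experiments towards negative, so this contrast does not show that the cultures were paired. No array was a duplicate (highest correlation 0.998). Nothing states separate cultures within an experiment, so p-values measure the spread between these arrays.

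The members, the lists of roles and pathways, the motifs and the naming rule were chosen with earlier results of these data known. Named were all members called with GlcN, up to 5 called members per direction in other comparisons, 14 members fixed by name, and up to 3 called genes per direction of a pathway list. Alternatives were no block, other filters on dim genes, the mean over clusters, other normalizations, only the groups compared, robust moderation with a trend, the methods' t-test, and leaving out arrays or experiments.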

Additional observations from a re-analysis of the deposited data

How the results depend on the processing

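The calls depended on the experiment block and on the arrays that entered the fit. With no replicate block, with the methods' t-test after adjustment, and with the block but only the groups compared, 0 members were called in every comparison that had called any, except that 1 was called for the combination of GlcN and alloxan against IL-1β in the last of these. The methods' t-test at an unadjusted threshold gave 1 member higher for GlcN and 2 for GlcN with alloxan against alloxan. This t-test was run on the deposited values without the study's further normalization, although levels differ between experiments. Its counts do not stand for the study's own test. The paper lists SLC6A9, SLC7A11, SLC3A2, SLC1A4 and SLC7A5 among the genes upregulated by GlcN. Its list was drawn from these same arrays, by cuts on fold change and on p without correction for multiple tests. It is therefore no independent support, and it does not hold the other members called higher here. A setting chosen after seeing the data, equal medians on all arrays with no replicate block, called 5 members higher and 0 lower for GlcN, 0 lower for the combination against IL-1β alone, 0 in either direction for alloxan, 1 lower for the combination against GlcN and 4 higher for it against alloxan.

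Other settings moved counts of 1: for GlcN, 0 were lower with a filter at the 50th percentile (SLC38A4 was no longer tested) and 2 with trend and robust moderation, and for alloxan 0 were higher with quantile normalization or with trend and robust moderation. No other count moved by over 1.5 times with no filter, with the mean over clusters or with the medians shifted under the block. Of the 49 gene differences followed, 3 were no longer called with the mean over clusters. Among the named members, SLC1A5 alone lies on more than 1 cluster, so this mean changed the signals of SLC1A5 only. Leaving out 1 array or 1 experiment gave 4 to 11 members higher and 0 to 2 lower for GlcN, 4 to 7 and 2 to 4 for the combination against IL-1β, 0 to 1 and 1 to 8 for alloxan, 1 to 6 lower for the combination against GlcN, and 2 to 9 higher and 0 to 1 lower for it against alloxan. Uncalled differences near 0 changed sign: for GlcN, SLC36A1 (0.01 with all arrays, -0.019 to 0.041 with 1 left out) was -0.019 without the GlcN array of experiment 2, -0.004 without the IL-1β array of experiment 1 and -0.013 without experiment 2. SLC6A6 (-0.03, range -0.064 to 0.014) was 0.014 without the GlcN array of experiment 1 and 0.004 without the IL-1β array of experiment 2. SLC7A8 (0.02, range -0.042 to 0.092) was -0.042 without the GlcN array of experiment 2, -0.002 without that of experiment 3 and -0.021 without experiment 2. Beyond the settings named, the cause of these changes was not tested.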

Other observations

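Many deposited values were shared exactly, to every decimal given, by arrays of the same experiment. Between the GlcN and the IL-1β array, 21.0% of the 16872 genes tested had equal values in experiment 1, 10.6% in experiment 2 and 15.2% in experiment 3, and among the 54 members tested 10, 4 and 14 did. Between the alloxan and the IL-1β array these shares were 19.4%, 19.0% and 15.5%. SLC38A2 showed the pattern, with a signal of 12.35 on 4 of the 5 arrays of experiment 1, and SLC6A17 had the same value with alloxan and with GlcN and alloxan in each experiment. Over all 33297 clusters, 2023 had a single value on the 5 arrays of experiment 1, 1221 in experiment 2 and 1164 in experiment 3. The part of such values in the calls was not tested.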
